A study of Mus musculus with 9 samples.

Results

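The expression of 10 cartilage genes was described in the aortic wall of Apoe-/- mice, with the genes chosen by name as a chondrocyte regulator and cartilage matrix genes and found by symbol in the deposited table, where all 10 are present among 54532 genes. The members are Sox9, Col2a1, Col10a1, Acan, Hapln1, Snorc, Comp, Chad, Matn3 and Cytl1. Whole aortas came from 3 groups of mice that all lack apolipoprotein E and that entered a regimen of 24 weeks at 6 to 8 weeks of age. The group HFD_IO received a high fat diet with intraperitoneal injections of ammonium iron(III) citrate, the group HFD received the high fat diet alone, and the group CD received chow, with 3 libraries in each. The labels name no vehicle injection, so the iron salt and the injections cannot be told apart, and no mouse with a working Apoe gene was analysed here.

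Cartilage is made by chondrocytes, whose transcription factor SOX9 switches on the genes of the matrix. That matrix is a network of type II collagen fibrils that holds aggrecan, a large proteoglycan tied to hyaluronan by link protein, and chondrocytes that enlarge before bone replaces them add type X collagen. In advanced atherosclerosis, smooth muscle cells of the wall are known to take on chondrocyte-like features, and cartilage-like tissue has been described in aged plaques of Apoe-deficient mice.

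The RefSeq promoter table (GRCm38.p6, the build of the deposited positions) held 6 of the 10 genes: Col10a1, Acan, Hapln1, Chad, Matn3 and Cytl1. The promoters of the 4 of these that rose in HFD_IO over CD are shown. Each sequence runs 5′ to 3′ on the plus strand from 250 bases before the annotated start to 50 bases from it, and capitals mark any match, on either strand, to the SOX core ACAATG, the RUNX core TGTGGT or the TATA box TATAAA, none of which overlapped another. Chad lies at chr11:94564797-94565096, Col10a1 at chr10:34389731-34390030, Acan at chr7:79052976-79053275 and Hapln1 at chr13:89540386-89540685.
Chad: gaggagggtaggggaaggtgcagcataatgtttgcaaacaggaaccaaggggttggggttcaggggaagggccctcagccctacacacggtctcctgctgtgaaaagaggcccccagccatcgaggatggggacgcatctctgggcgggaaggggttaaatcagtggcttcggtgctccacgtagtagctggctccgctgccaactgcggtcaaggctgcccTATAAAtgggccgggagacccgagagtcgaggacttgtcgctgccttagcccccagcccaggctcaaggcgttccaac
Col10a1: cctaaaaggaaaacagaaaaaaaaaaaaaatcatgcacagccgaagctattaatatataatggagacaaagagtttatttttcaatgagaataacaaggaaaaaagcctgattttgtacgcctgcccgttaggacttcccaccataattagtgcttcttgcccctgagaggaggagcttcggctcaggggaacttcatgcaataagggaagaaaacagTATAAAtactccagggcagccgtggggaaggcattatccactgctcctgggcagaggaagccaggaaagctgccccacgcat
Acan: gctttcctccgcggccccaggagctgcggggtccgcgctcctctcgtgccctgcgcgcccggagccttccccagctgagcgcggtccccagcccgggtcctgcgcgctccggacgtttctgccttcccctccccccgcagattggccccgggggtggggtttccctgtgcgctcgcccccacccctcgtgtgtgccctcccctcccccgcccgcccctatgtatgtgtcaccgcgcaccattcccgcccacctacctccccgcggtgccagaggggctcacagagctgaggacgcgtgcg
Hapln1: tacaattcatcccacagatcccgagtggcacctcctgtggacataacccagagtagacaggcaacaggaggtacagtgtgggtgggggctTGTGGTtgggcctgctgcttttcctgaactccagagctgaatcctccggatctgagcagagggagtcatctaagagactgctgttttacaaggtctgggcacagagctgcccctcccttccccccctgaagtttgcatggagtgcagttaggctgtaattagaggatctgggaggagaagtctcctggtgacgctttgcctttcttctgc
Chad and Col10a1 each held 1 TATA box, which began 28 and 32 bases before the start, and Hapln1 held 1 RUNX core that began 160 bases before it. The SOX core was in none of the 6 windows. Over all 32851 promoters of the table a SOX core was in 12.6%, a RUNX core in 16.8% and a TATA box in 13.6%. The Acan window was 74.0% G and C, against 61.0% for Chad, 54.3% for Hapln1 and 44.3% for Col10a1, and the median over all promoters was 52.7%. The start of Acan in RefSeq lies 257 bases upstream of the start in the deposited table, and that of Hapln1 lies 840 bases downstream of it, so the windows of those genes show 1 annotated start among others.

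Levels are given in FPKM as deposited, a unit meant to correct reads for gene length and library depth, so levels can be compared between genes. Whole reads could be read back from them and summed to between 16660963 and 18308450 per library. The worth of 1 read did not follow these sums. In a gene of 1 kb it was 0.0615 FPKM in HFD_3, with 18158642 reads, and 0.0544 FPKM in CD_1, with 16660963 reads. Group comparisons on the deposited scale include this scaling, and its source was not tested. Each change is the difference of group means of log2(FPKM + 1), given with its standard error (SE) from limma, and p-values were adjusted over 13883 genes with at least 1 FPKM in at least 3 libraries, with a threshold of 0.05. Because 1 is added, changes of low genes come out too small. A library is named by its column, and nothing in the columns ties it to a numbered mouse of its group. Markers of contractile smooth muscle summed to between 2655 and 4480 FPKM in HFD_IO, 7352 and 8628 in HFD and 5720 and 6451 in CD over 12 genes, so the tissue carried the markers of an artery wall. HFD_IO_3 stood apart on the cartilage genes: it was the highest of all 9 libraries for 9 of the 10 members, with Col10a1 as the exception, and results are therefore also given without it. The same count was not made over all genes.

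Of the 10 genes, 4 rose in HFD_IO over HFD, 6 rose in HFD over CD and 7 rose in HFD_IO over CD, and none fell in any comparison. In HFD_IO over HFD the genes that rose were Sox9, Col10a1, Snorc and Chad, where 14.1% of all tested genes were called higher, 14.5% lower and 28.6% in either direction. In HFD over CD they were Sox9, Col2a1, Acan, Hapln1, Snorc and Chad, where 21.8% of all tested genes were called higher and 17.6% lower. In HFD_IO over CD these 6 and Col10a1 rose, where 17.5% of all tested genes were called higher. With each library rescaled to TPM, which gives all libraries the same sum, the median over all genes became 0.14 in HFD_IO over HFD, -0.30 in HFD over CD and -0.23 in HFD_IO over CD. TPM left 2373 genes higher and 1160 lower, 1018 higher and 4948 lower, and 1528 higher and 3800 lower, against 1956 and 2013, 3030 and 2440, and 2427 and 2089 on the deposited scale. Without HFD_IO_3 the same 4 genes rose in HFD_IO over HFD, where 1470 of 13883 tested genes were called higher and 1430 lower. In HFD_IO over CD the same 7 then rose and Cytl1 fell, where 2086 were called higher and 1765 lower. These totals are also the background of the list counts without HFD_IO_3 below. Groups did not overlap for 4 members in HFD_IO over HFD, 7 in HFD over CD and 7 in HFD_IO over CD, with the levels higher in HFD_IO than in HFD, in HFD than in CD and in HFD_IO than in CD, while over all tested genes they did not overlap in either direction for 48.5%, 50.7% and 47.0% and were higher without overlap for 24.1%, 28.2% and 24.3%. The members that rose in each comparison were called under TPM as well, and Col10a1 was then also called in HFD over CD. Matn3 stayed below 1 FPKM in all libraries and was not tested. Sox9, Col2a1, Col10a1, Hapln1 and Snorc were below 1 FPKM in every CD library and passed the filter through the other groups, so the counts against CD describe these genes and support nothing beyond them. The same holds for genes of the lists below that were under 1 FPKM in every library of the lower group of a comparison. In RNA from whole tissue, fewer or more cells of a type and less or more RNA per cell cannot be told apart.

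**Figure D1:**
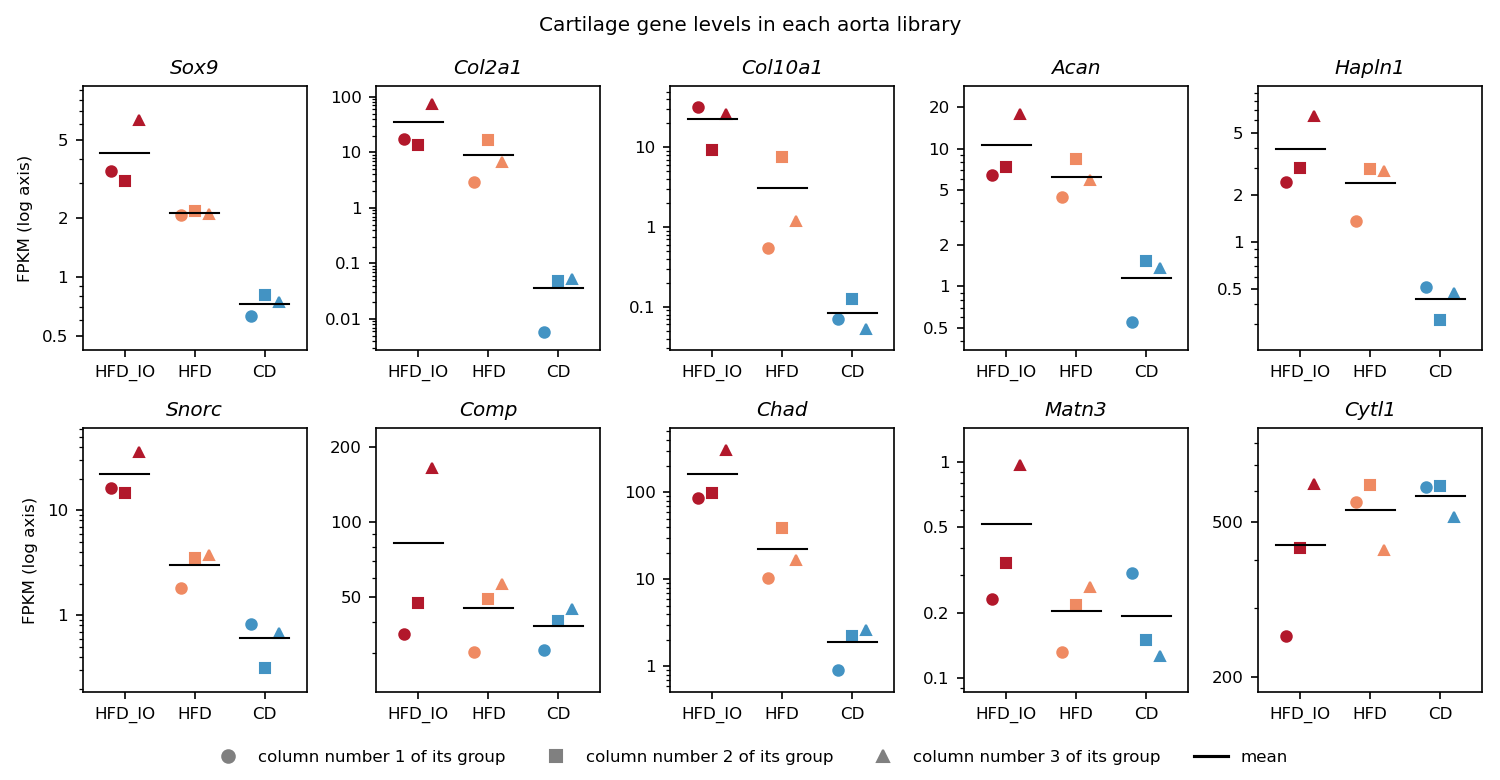
FPKM of each gene on a log axis in HFD_IO, HFD and CD, with 1 point per library, marker shapes for the column number within a group (the same number does not pair mice) and a line at the group mean. Col2a1 reached 73.4 FPKM in HFD_IO_3 and stayed at or below 0.0535 FPKM in CD, while Cytl1 lay between 255 and 626 FPKM in all 9 libraries.

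Sox9 (ENSMUSG00000000567, chromosome 11, 112782224 to 112787760, GRCm38), the master regulator of chondrocytes, rose in each step. It was at 3.45, 3.09 and 6.30 FPKM in HFD_IO_1, HFD_IO_2 and HFD_IO_3, against 2.07, 2.15 and 2.10 FPKM in HFD_1, HFD_2 and HFD_3 and 0.631, 0.809 and 0.744 FPKM in CD_1, CD_2 and CD_3. The 3 groups did not overlap, and the 3 HFD libraries lay close together while HFD_IO_3 lay well above the other HFD_IO libraries. The means were 4.28 ± 1.76 FPKM in HFD_IO, 2.11 ± 0.0419 in HFD and 0.728 ± 0.0899 in CD (SD, n = 3 each). The log2 change was 0.72 in HFD_IO over HFD (SE 0.20, adjusted p = 0.0259), 0.85 in HFD over CD (SE 0.20, adjusted p = 0.00983) and 1.56 in HFD_IO over CD (SE 0.20, adjusted p = 0.000424). Without HFD_IO_3 the change in HFD_IO over HFD was 0.46 (adjusted p = 0.0317). That call was lost without HFD_1 (adjusted p = 0.0574), HFD_2 (0.0613) or HFD_3 (0.0714) and with no filter on low values (0.0727).

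Among the collagens, Col2a1 (ENSMUSG00000022483, chromosome 15, 97975602 to 98004695), which encodes the chain of the main cartilage collagen, was nearly undetected on chow. Its level was 17.2, 13.7 and 73.4 FPKM in HFD_IO, against 2.98, 16.9 and 6.78 FPKM in HFD and 0.00588, 0.0491 and 0.0535 FPKM in CD, in the order of the columns. The CD values rest on 1, 8 and 9 reads, while the HFD libraries held 482 to 2607 reads and the HFD_IO libraries 2206 to 11975. HFD_2 lay among the lower HFD_IO libraries, so HFD_IO and HFD overlapped, and CD lay far below both. Col2a1 rose in HFD over CD by 2.99 (SE 0.65, adjusted p = 0.00742) and in HFD_IO over CD by 4.71 (SE 0.65, adjusted p = 0.000676), and its change in HFD_IO over HFD was 1.72 (SE 0.65, adjusted p = 0.0752). That change was 2.29 without HFD_2 (adjusted p = 0.0385) and 1.00 without HFD_IO_3 (adjusted p = 0.194).

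Col10a1 (ENSMUSG00000039462, chromosome 10, 34389981 to 34397085) encodes type X collagen, the marker of hypertrophic chondrocytes. Its levels were 32.0, 9.20 and 26.4 FPKM in HFD_IO, against 0.548, 7.49 and 1.18 FPKM in HFD and 0.0695, 0.127 and 0.0526 FPKM in CD. The 3 groups did not overlap, but HFD_2 came close to HFD_IO_2 and stood well above the other HFD libraries. Col10a1 rose in HFD_IO over HFD by 2.78 (SE 0.61, adjusted p = 0.0116) and in HFD_IO over CD by 4.28 (SE 0.61, adjusted p = 0.000871). Between HFD and CD its change was 1.50 (SE 0.61, adjusted p = 0.0806), which passed the threshold without HFD_1 (1.99, adjusted p = 0.0384) and with 0.1 in place of 1 added to the FPKM (3.36, adjusted p = 0.0119). The rise over HFD was 2.58 without HFD_IO_3 (adjusted p = 0.0385). The gene overlaps Nt5dc1 on the opposite strand, and no source used here gives the strand setting of the counting. Nt5dc1 was at 4.38 to 4.99 FPKM in HFD_IO, 3.48 to 3.72 in HFD and 2.93 to 3.83 in CD, a much narrower range than that of Col10a1.

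Of the proteoglycan genes, Acan and Hapln1 rose with the diet and Snorc rose in both steps. Acan (ENSMUSG00000030607, chromosome 7, 79053483 to 79115099), the core protein of aggrecan, was at 6.42, 7.30 and 17.9 FPKM in HFD_IO, against 4.41, 8.38 and 5.92 FPKM in HFD and 0.546, 1.53 and 1.36 FPKM in CD. Apart from HFD_IO_3, the HFD_IO libraries lay within the range of HFD, and CD lay below every other library. Acan rose by 1.75 in HFD over CD (SE 0.36, adjusted p = 0.00616) and by 2.33 in HFD_IO over CD (SE 0.36, adjusted p = 0.00132). Its change in HFD_IO over HFD was 0.58 (SE 0.36, adjusted p = 0.257), or 0.15 without HFD_IO_3 (adjusted p = 0.716).

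Hapln1 (ENSMUSG00000021613, chromosome 13, 89539796 to 89611652), the link protein that fastens aggrecan to hyaluronan, had its group means in the same order as Acan. It was at 2.44, 2.96 and 6.42 FPKM in HFD_IO, against 1.37, 2.94 and 2.87 FPKM in HFD and 0.516, 0.317 and 0.475 FPKM in CD. Hapln1 rose by 1.20 in HFD over CD (SE 0.29, adjusted p = 0.0124) and by 1.70 in HFD_IO over CD (SE 0.29, adjusted p = 0.00237), and its change in HFD_IO over HFD was 0.50 (SE 0.29, adjusted p = 0.232), or 0.16 without HFD_IO_3 (adjusted p = 0.651). The ratio of Hapln1 to Acan FPKM was 0.380, 0.406 and 0.358 in HFD_IO and 0.309, 0.350 and 0.485 in HFD, with the values of HFD_IO inside the range of HFD. In CD it was 0.945, 0.207 and 0.349, and CD_1 was the highest CD library for Hapln1 and the lowest for Acan. Hapln1 overlaps the pseudogene Gm8546, which held 0 to 6 reads per library.

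Snorc (ENSMUSG00000026258, chromosome 1, 87470271 to 87475482), a small chondrocyte membrane proteoglycan, was at 16.3, 14.6 and 35.9 FPKM in HFD_IO, against 1.82, 3.48 and 3.75 FPKM in HFD and 0.828, 0.314 and 0.685 FPKM in CD. Every HFD_IO library stood well clear of HFD, and HFD stood clear of CD. Its mean was 22.3 ± 11.8 FPKM in HFD_IO, 3.02 ± 1.04 in HFD and 0.609 ± 0.265 in CD (SD, n = 3 each). Snorc rose by 2.46 in HFD_IO over HFD (SE 0.33, adjusted p = 0.00192), 1.30 in HFD over CD (SE 0.33, adjusted p = 0.0141) and 3.76 in HFD_IO over CD (SE 0.33, adjusted p = 6.83e-05). The rise over HFD was 2.07 without HFD_IO_3 (adjusted p = 0.00275). The call in HFD over CD rests on 23 to 44 reads in HFD and 4 to 11 in CD, and it was lost without CD_2 (adjusted p = 0.0514) and by voom, limma's model of counts, on the reads (adjusted p = 0.0697).

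Chad (ENSMUSG00000039084, chromosome 11, 94565047 to 94569127) encodes chondroadherin, a leucine-rich protein that binds collagen and integrins. Its levels were 86.4, 98.8 and 307 FPKM in HFD_IO, against 10.2, 39.4 and 16.7 FPKM in HFD and 0.906, 2.23 and 2.62 FPKM in CD. The groups did not overlap, and Chad was in place 113 of all genes by FPKM in HFD_IO_3, against places 10208 to 13564 in CD. Chad rose by 2.80 in HFD_IO over HFD (SE 0.56, adjusted p = 0.00813), 2.83 in HFD over CD (SE 0.56, adjusted p = 0.00529) and 5.63 in HFD_IO over CD (SE 0.56, adjusted p = 0.000124). Without HFD_IO_3 the rise over HFD was 2.22 (adjusted p = 0.0188). Chad overlaps Acsf2 on the opposite strand, which was at 8.79 to 10.6 FPKM in HFD_IO, 7.13 to 8.62 in HFD and 6.13 to 8.61 in CD.

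Comp, Matn3 and Cytl1 did not pass the threshold in any comparison on the deposited scale with all libraries. Comp (ENSMUSG00000031849, chromosome 8, 70373558 to 70382066), a pentameric adaptor protein that also occurs in tendon and vessel wall, was at 35.5, 47.3 and 165 FPKM in HFD_IO, against 30.2, 49.5 and 56.6 FPKM in HFD and 30.6, 40.1 and 44.7 FPKM in CD. HFD_IO_3 lay far above all other libraries, and HFD_IO_1 and HFD_IO_2 lay within the range of HFD. The change in HFD_IO over HFD was 0.56 (SE 0.50, adjusted p = 0.421) and turned to -0.10 without HFD_IO_3 (adjusted p = 0.829). For HFD over CD it was 0.20 (SE 0.50, adjusted p = 0.766), with a turn to -0.19 under TPM and -0.09 after quantile normalization, and in HFD_IO over CD it was 0.77 (SE 0.50, adjusted p = 0.274).

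Matn3 (ENSMUSG00000020583, chromosome 12, 8947929 to 8972028), a matrilin that links matrix fibrils, was at 0.233, 0.343 and 0.977 FPKM in HFD_IO, against 0.133, 0.218 and 0.265 FPKM in HFD and 0.307, 0.150 and 0.128 FPKM in CD. These values rest on 7 to 52 reads and the groups overlapped. An exact two-sided permutation test of log2(FPKM + 1), whose smallest p with 3 against 3 is 0.1, gave p = 0.2 in HFD_IO against HFD, 0.9 in HFD against CD and 0.2 in HFD_IO against CD. With no filter on low values limma gave adjusted p = 0.325, 1 and 0.281 in the same order.

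Cytl1 (ENSMUSG00000062329, chromosome 5, 37735519 to 37739820), a secreted protein of chondrocytes named for its likeness to cytokines, was the most abundant of the members in every library. It was at 255, 429 and 626 FPKM in HFD_IO, against 563, 622 and 424 FPKM in HFD and 617, 620 and 515 FPKM in CD. HFD_IO_1 was the lowest library and HFD_IO_3 the highest, so HFD_IO spanned the range of both other groups. The change was -0.37 in HFD_IO over HFD (SE 0.30, adjusted p = 0.375), -0.13 in HFD over CD (SE 0.30, adjusted p = 0.742) and -0.51 in HFD_IO over CD (SE 0.30, adjusted p = 0.230). The sign in HFD_IO over HFD turned after quantile normalization (0.02), and without HFD_IO_3 Cytl1 passed the threshold in HFD_IO over CD (-0.81, adjusted p = 0.0492). Cytl1 made up 56.0%, 68.5% and 49.5% of the summed FPKM of the 10 genes in HFD_IO, 91.3%, 82.7% and 81.5% in HFD and 94.7%, 93.2% and 91.0% in CD.

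**Figure D2:**
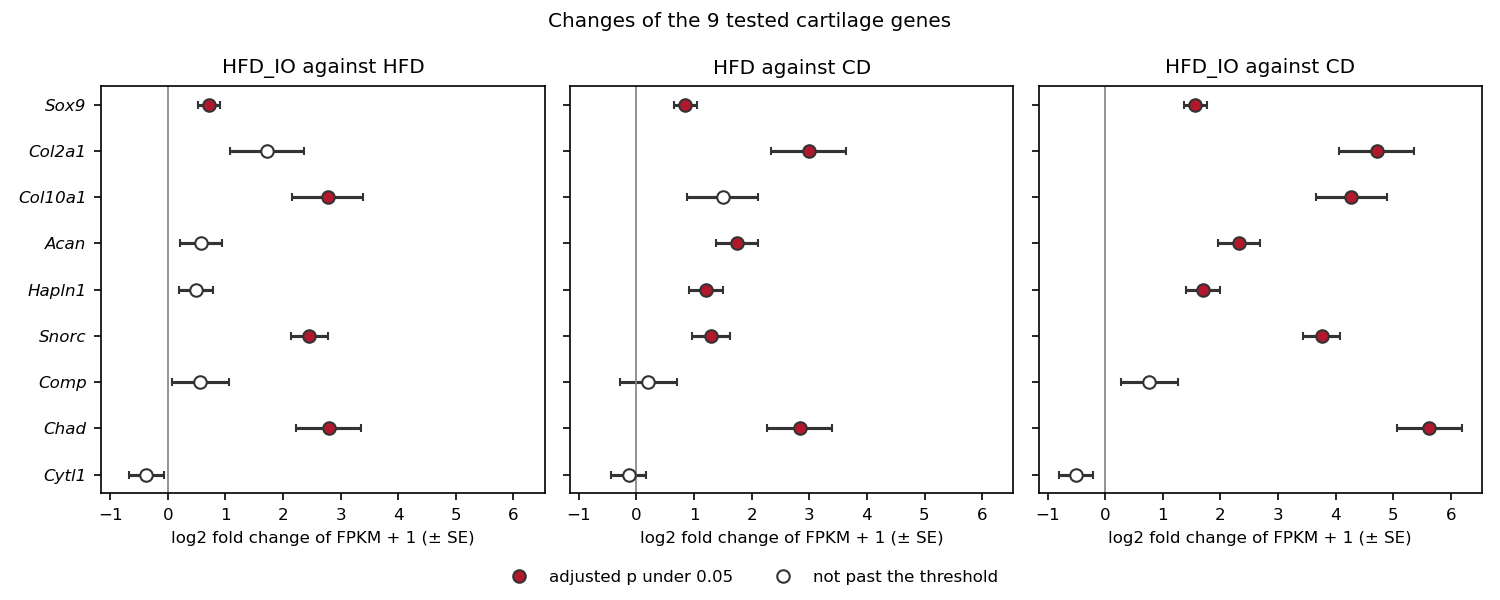
Log2 fold change of FPKM + 1 (horizontal axis, bars give ± SE) of the 9 tested genes in HFD_IO against HFD, HFD against CD and HFD_IO against CD, with filled points past the threshold of 0.05. Chad changed by 2.80, 2.83 and 5.63, while Comp and Cytl1 stayed below the threshold in each panel.

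By mean level, Cytl1 came first in each group, and the order below it differed. In HFD_IO it was followed by Chad (164 ± 124 FPKM), Comp (82.6 ± 71.6), Col2a1 (34.8 ± 33.5), Col10a1 (22.5 ± 11.9), Snorc (22.3 ± 11.8) and Acan (10.5 ± 6.40), and the library values of each neighbouring pair down to Acan overlapped. HFD had Comp (45.4 ± 13.6 FPKM), Chad (22.1 ± 15.3), Col2a1 (8.87 ± 7.18), Acan (6.24 ± 2.00) and Col10a1 (3.07 ± 3.84) after Cytl1, with overlap between neighbours from Comp to Sox9. CD had Comp (38.5 ± 7.17 FPKM), which stood clear of its neighbours, and then Chad (1.92 ± 0.896) and Acan (1.15 ± 0.527), which overlapped. Such overlap between libraries does not mean that the order varied within a library. In each HFD_IO library Cytl1 exceeded Chad, Chad exceeded Comp, Comp exceeded Col2a1 and Snorc exceeded Acan. In each HFD library Comp exceeded Chad, Chad exceeded Col2a1 and Acan exceeded Col10a1, and in each CD library Chad exceeded Acan. Col2a1 was in place 10 in CD (0.0361 ± 0.0263 FPKM, SD, n = 3 each) and in place 4 in HFD and HFD_IO.

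Ratios between members within a library, chosen after the values were seen, showed how their proportions differed. The ratio of Chad to Col2a1 FPKM was 5.01, 7.22 and 4.19 in HFD_IO, against 3.44, 2.34 and 2.46 in HFD, with no overlap. The ratio of Col10a1 to Col2a1 was 1.86, 0.672 and 0.360 in HFD_IO, against 0.184, 0.444 and 0.174 in HFD, with overlap through HFD_2 and HFD_IO_3. Among these 6 libraries Col10a1 exceeded Col2a1 in HFD_IO_1 alone. Of 4 ratios compared, an exact two-sided permutation test of the log2 ratios gave p = 0.1 for Chad to Col2a1, the smallest that 3 against 3 allows, 0.2 for Col10a1 to Col2a1, 0.4 for Col2a1 to Sox9 and 0.9 for Hapln1 to Acan. Ratios to Col2a1 in CD are not given, because its reads there are so few.

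**Figure D3:**
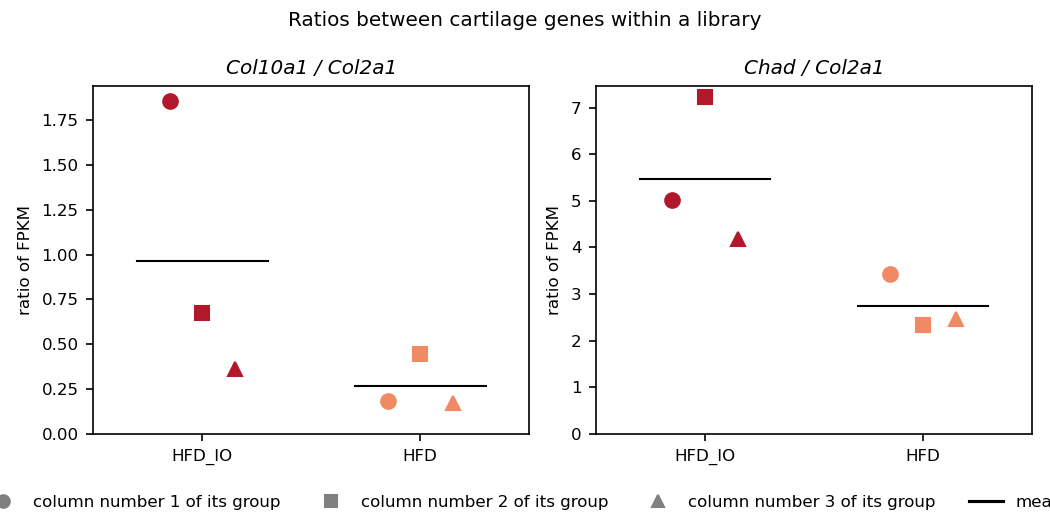
Ratio of FPKM between Col10a1 and Col2a1 (left) and between Chad and Col2a1 (right) in each HFD_IO and HFD library, with a line at the group mean and a linear axis from 0. Chad to Col2a1 is 4.19 or more in HFD_IO and 3.44 or less in HFD, and Col10a1 to Col2a1 is highest in HFD_IO_1 at 1.86.

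The position of HFD_IO_3 and HFD_2 within their groups recurred over the members. Relative to the mean of HFD_IO_1 and HFD_IO_2, HFD_IO_3 held 4.75 times the FPKM of Col2a1, 3.98 times that of Comp, 3.32 times that of Chad, 2.61 times that of Acan, 2.32 times that of Snorc and 1.93 times that of Sox9. For Col10a1 the factor was 1.28. HFD_2 was the highest HFD library for 7 of the 10 members. How often HFD_IO_3 and HFD_2 were highest in their groups over all genes was not counted, so these positions are not shown to be particular to the members. HFD_IO_3 was also the highest HFD_IO library for the osteoblast genes Bglap2, at 1.61, 0.609 and 7.70 FPKM in HFD_IO_1, HFD_IO_2 and HFD_IO_3, and Mepe, at 0.997, 1.67 and 9.63 FPKM. Its summed level of 12 macrophage markers was 5140 FPKM, against 7561 in HFD_IO_1 and 8691 in HFD_IO_2, a gap set mostly by Lyz2 at 2401 FPKM against 4317 and 4511. Adgre1, Csf1r, Fcgr1 and C1qa were lower in HFD_IO_1 than in HFD_IO_3, and the rest of the 12 were higher. Of those, Cd68 was at 420 FPKM in HFD_IO_1 and 338 in HFD_IO_3, and Gpnmb at 797 and 395. HFD_2 and HFD_3 were highest for skeletal muscle markers, with sums of 104 and 63.9 FPKM against 6.57 in HFD_1. The part of these differences in the results was not tested.

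Other genes of the cartilage matrix were read from a list of 21 genes, of which 14 were tested. In HFD_IO over HFD, where 14.1% of all tested genes were called higher and 14.5% lower, 5 of the 14 rose and 1 fell. The median of the 14 was 0.97, where all tested genes had a median of 0.00. Without HFD_IO_3, 2 rose and 1 fell, with a median of 0.60: Col9a2 and Col11a2 rose and Susd5 fell. Under TPM 8 rose and 1 fell, with a median of 1.41. Col9a2, a chain of the collagen that coats type II fibrils, was at 2.67, 1.87 and 12.1 FPKM in HFD_IO and 0.240, 0.985 and 0.179 FPKM in HFD, and was listed at 0 in every CD library. It rose over HFD by 1.86 (SE 0.49, adjusted p = 0.0228), or by 1.19 without HFD_IO_3 (adjusted p = 0.0164). Because Col9a2 was below 1 FPKM in every HFD and CD library, it passed the filter through HFD_IO. Its call describes Col9a2 and supports nothing beyond it. Cnmd (chondromodulin), Col11a2 (type XI collagen) and Prg4 (lubricin) rose by 1.70, 1.54 and 1.27, and Susd5 fell by 1.60. Without HFD_IO_3 the changes of Cnmd and Prg4 were 1.17 (adjusted p = 0.116) and 1.31 (adjusted p = 0.0681). Between HFD and CD 3 rose and 2 fell with a median of 0.60, and in HFD_IO over CD 8 rose and 1 fell with a median of 1.51. Under TPM these were 3 and 3 with a median of 0.65 and 8 and 2 with a median of 1.95, and without HFD_IO_3 8 rose and 3 fell in HFD_IO over CD with a median of 1.06. Clec3a, a cartilage lectin, rose by 2.54 in HFD over CD (SE 0.60, adjusted p = 0.0105). HFD_2 was its highest HFD library at 14.2 FPKM, as for Col2a1, and CD held at most 0.0929 FPKM. Clec3a, Cnmd, Col9a2, Col9a3, Scrg1 and Ucma were below 1 FPKM in every CD library and passed the filter through the other groups. The counts of this list against CD therefore describe these genes and support nothing beyond them. Fmod (fibromodulin) and Cilp, which are matrix proteins of cartilage and other connective tissue, fell in HFD over CD by 0.91 and 0.72.

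**Figure D4:**
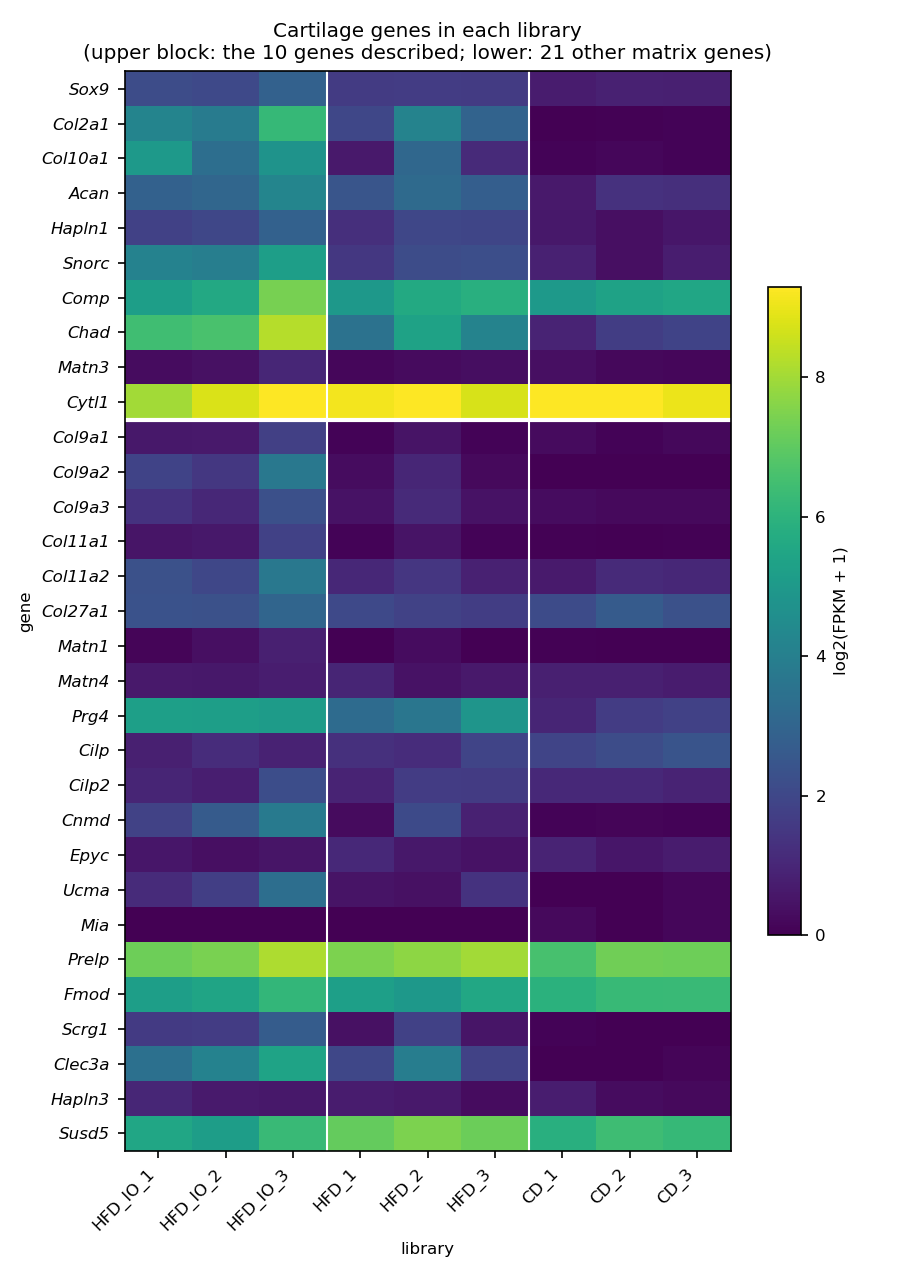
Log2(FPKM + 1) of the 10 genes (upper block) and of 21 other cartilage matrix genes (lower block) in each HFD_IO, HFD and CD library. Cytl1 is bright in all 9 libraries, while Col2a1, Chad, Clec3a and Col9a2 are darkest in CD and brightest in HFD_IO_3.

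Genes that regulate chondrocytes changed in both directions in HFD_IO over HFD. Of 17 tested of 23 listed, 5 rose and 3 fell in HFD_IO over HFD, none rose and 5 fell in HFD over CD, and 5 rose and 6 fell in HFD_IO over CD, with medians of 0.08, -0.06 and -0.13. Under TPM 5 rose and 2 fell in HFD_IO over HFD with a median of 0.24, none rose and 8 fell in HFD over CD with a median of -0.42, and 5 rose and 7 fell in HFD_IO over CD with a median of -0.40. Without HFD_IO_3 the median was -0.02 in HFD_IO over HFD, with 5 higher and 2 lower, and -0.36 in HFD_IO over CD, with 5 higher and 6 lower. Sp7, a regulator of bone-forming cells, was at 1.37, 1.57 and 4.88 FPKM in HFD_IO, against 0.219, 0.528 and 0.145 FPKM in HFD, and rose by 1.36 (SE 0.32, adjusted p = 0.0139), or by 0.94 without HFD_IO_3 (adjusted p = 0.0131). Runx2, which drives hypertrophy and bone formation, rose by 1.01 in HFD_IO over HFD (SE 0.15, adjusted p = 0.00245), at 1.79, 1.75 and 2.21 FPKM in HFD_IO against 0.705, 0.359 and 0.313 FPKM in HFD. From CD it differed in HFD by 0.06 (adjusted p = 0.771). Sp7 and Runx2 were below 1 FPKM in every HFD and CD library and passed the filter through HFD_IO. Their calls over HFD describe these genes and support nothing beyond them. Pth1r, a receptor of growth plate cartilage, rose by 0.80 and Ctgf fell by 0.95 in HFD_IO over HFD. Sox6, a partner of SOX9, changed by 0.11, -0.01 and 0.10 in the 3 comparisons and did not pass the threshold in any of them. Sox5, the other partner, was below the filter at 0.882 to 1.19 FPKM in HFD_IO, 0.485 to 0.668 in HFD and 0.492 to 1.04 in CD. The strongest falls in HFD over CD were those of Wwp2 (1.06 on the log2 scale), which hosts a cartilage microRNA, and Gli1, a hedgehog target, which fell by 1.00.

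Of 13 tested genes of glycosaminoglycan synthesis, which builds the sugar chains of aggrecan, 5 rose and 2 fell in HFD_IO over HFD, 1 rose and 1 fell in HFD over CD, and 6 rose and 1 fell in HFD_IO over CD, with medians of 0.05, 0.13 and 0.30. Chst11, a chondroitin sulfotransferase, rose by 1.39 in HFD_IO over HFD (SE 0.19, adjusted p = 0.00194), at 12.6, 16.5 and 16.3 FPKM in HFD_IO against 5.18, 6.33 and 4.01 FPKM in HFD. Xylt1 and Xylt2, which start the chains, rose by 1.24 and 0.90, and Chsy3 fell by 0.88. The call of Chsy3 was lost without HFD_IO_3 (-0.99, adjusted p = 0.0612) and under TPM (adjusted p = 0.0940). Under TPM 5 rose and 1 fell in HFD_IO over HFD with a median of 0.21, none rose and 1 fell in HFD over CD with a median of -0.18, and 4 rose and 2 fell in HFD_IO over CD with a median of 0.08. In contrast to most of the members, Chst11 and Xylt1 were about as high in HFD_IO_1 and HFD_IO_2 as in HFD_IO_3.

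Of 11 tested genes of hypertrophy and cartilage breakdown, 5 rose in HFD_IO over HFD, 5 rose and 2 fell in HFD over CD, and 6 rose and 1 fell in HFD_IO over CD, with medians of 0.58, 0.70 and 0.83. The counts were the same under TPM, with medians of 0.77, 0.44 and 0.69. Mmp13, Spp1, Ibsp and Adamts4 rose by 3.40, 1.96, 1.88 and 0.80 in HFD_IO over HFD, and each of the 4 was called higher without HFD_IO_3 as well. Mmp13, the collagenase of hypertrophic cartilage, was at 37.1, 23.6 and 19.8 FPKM in HFD_IO. It was highest in HFD_IO_1, like Col10a1, but lowest in HFD_IO_3, where Col10a1 was lowest in HFD_IO_2. Spp1 and Adamts4 were also lowest in HFD_IO_3 among the HFD_IO libraries, at 2352 and 1.08 FPKM, while Ibsp was highest there at 139 FPKM. Adamts4 is an enzyme that cleaves aggrecan, and it was below 1 FPKM in every HFD library.

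Markers of other cell types moved in the same comparisons, and their part in the cartilage gene results was not tested. In HFD_IO over HFD 10 of 12 macrophage markers rose, 8 of 12 contractile smooth muscle markers fell, 5 of 8 fibroblast markers fell, 3 of 8 endothelial markers rose, 2 of 8 white adipocyte markers fell and 3 of 5 tested red and marrow cell markers fell. Their medians were 0.86, -0.998, -1.09, 0.46, -1.29 and -1.51. Without HFD_IO_3 9 macrophage markers and no endothelial marker rose, with an endothelial median of 0.54, and 1 adipocyte marker fell. Under TPM 10 macrophage and 3 endothelial markers rose, 6 contractile, 1 adipocyte and 3 red and marrow cell markers fell, and 1 fibroblast marker rose and 5 fell. Between HFD and CD 11 of 12 macrophage markers rose, 2 contractile markers rose and 1 fell, 3 fibroblast and 3 adipocyte markers rose, 7 of 8 endothelial markers fell and no red and marrow cell marker passed. Under TPM 10 macrophage and 2 adipocyte markers rose, none of the contractile markers rose and 2 fell, 2 fibroblast markers rose and 2 fell with a median of 0.09 against 0.48 on the deposited scale, and all 8 endothelial markers fell. In HFD_IO over CD all 12 macrophage markers rose, 9 contractile, 3 endothelial and 1 of the red and marrow cell markers fell, no adipocyte marker passed, and 2 fibroblast markers rose and 4 fell. Under TPM all 12 contractile markers, 5 fibroblast markers and 3 red and marrow cell markers fell there, and the other counts were the same. Of 5 tested skeletal muscle markers none passed in HFD_IO over HFD or over CD, and 2 rose in HFD over CD (1 under TPM).

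Cartilage outside the vessel was looked at through markers of its neighbours. Of 10 airway epithelium markers, which would accompany tracheal cartilage, 4 were tested and none passed in HFD_IO over HFD or in HFD over CD, while Krt8 fell in HFD_IO over CD, a call that was lost without HFD_IO_3. Their summed level was 9.39 to 18.6 FPKM in HFD_IO, 9.43 to 15.5 in HFD and 5.68 to 16.2 in CD, and Krt5 was listed at 0 in all HFD_IO and HFD libraries. Epcam was at 2.14 FPKM in HFD_IO_3 and at most 0.293 FPKM elsewhere. Of 6 tested osteoblast markers 2 rose and 1 fell in HFD_IO over HFD (Ibsp and Sp7 against Sost), 1 rose and 1 fell in HFD over CD, and 3 rose and 1 fell in HFD_IO over CD. Ibsp was also counted above with hypertrophy and Sp7 with the chondrocyte regulators. The summed level of the 10 listed osteoblast markers was 124 to 346 FPKM in HFD_IO, 322 to 357 in HFD and 271 to 467 in CD. Sost made up most of it in HFD and CD, while in HFD_IO_2 Ibsp (62.6 FPKM) exceeded Sost (53.9 FPKM). Of the tendon markers Kera was listed at 0 in all libraries, and Scx fell by 0.71 in HFD_IO over HFD, rose by 0.43 in HFD over CD (0.06 and not called under TPM) and changed by -0.28 in HFD_IO over CD (adjusted p = 0.130), where it was called lower under TPM (-0.53). The part of these tissues in the results was not tested.

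Genes whose pattern over the 9 libraries was most like that of a member were found by the root mean square difference of standardised log2(FPKM + 1), which is 0 for the same pattern. The libraries share the groups, so this is a description. Predicted genes with Gm, Rik, AC or AL names were left out before the ranking, so closest means closest among the other tested genes. Chad was closest to Frzb (0.109), a secreted Wnt inhibitor of cartilage, then Gcnt4 (0.171) and Crispld1 (0.183). Col2a1 was closest to Pkp1 (0.168), Clec3a (0.186) and Ibsp (0.190), and Hapln1 to Col2a1 (0.194), Acot1 (0.198) and Pkp1 (0.208). Sox9 was closest to Nos2 (0.196), Pcdhb7 (0.213) and Chad (0.215), and Acan to Lnx1 (0.166), Tmco4 (0.170) and Agpat4 (0.187). Snorc was closest to Cx3cl1 (0.200), Alcam (0.200) and Vill (0.210), and Col10a1 to Cd80 (0.212), P2ry10b (0.225) and Gpr176 (0.296). Of 12341 genes ranked for each, the 100 closest to Col2a1 held 6 other members, those to Sox9 and Hapln1 5 each, those to Acan and Chad 4 each and those to Snorc and Col10a1 3 each. Comp and Cytl1 had no other member among their 100 closest. Comp was closest to Chadl (0.347), the chondroadherin-like gene, then Ighv1-80 (0.364) and Rpusd1 (0.389). Cytl1 was closest to Jag2 (0.369), Mir7-1 (0.393) and Nr4a3 (0.466).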

How the data were processed

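Per the labels' protocols, aortic RNA was purified on Qiagen columns and made into sequencing libraries by an NEBNext Ultra kit. The submitters' processing notes name HISAT2 and the human build hg38, but the gene IDs of the table are mouse, and 54409 of 54532 are in GENCODE M21 (GRCm38), 98.3% of them at the same position. The members are all at the same position. No source used here names the counting tool or its strand setting. Values deposited by the authors are FPKM, 1 column per library, and column names give the group only. Multiplied by gene length, and divided by what 1 read is worth in its library, 100% of values above 0 gave whole reads within 0.05 of a read. Replicate libraries differed by 6.41 to 56.4 times the counting noise (chi-square per degree of freedom). CD_2 and CD_3 were the closest pair at 6.41, with 26.2 or more for every other pair of a group. No pair agreed within counting noise, and all were kept as separate samples, as labelled. This check does not show that they came from separate aortas. Nothing says that the aortas came from separate cages or days, and p-values measure the spread between these samples.

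Log2(FPKM + 1) of 13883 genes with FPKM of at least 1 in at least 3 libraries was fitted with 3 group means and a mean-variance trend (limma 3.58.1, R 4.3.3), with Benjamini-Hochberg adjustment over all of these genes. The calculation was tested on simulated data. Exact permutation tests used scipy 1.17.1. The members and gene lists were chosen with earlier results of these data known. Named genes are the members, up to 4 per list with the largest called change in HFD_IO over HFD, 2 more in the other comparisons, and the 3 genes most like each member in pattern. Prg4, Sox5, Sox6, Fmod, Cilp, Mepe, Bglap2, Lyz2, Csf1r, Fcgr1, C1qa, Epcam, Krt5, Krt8, Kera and the overlapping genes are named outside that rule and were chosen after their values were seen. The counts of the gene lists without HFD_IO_3 and under TPM were added after the data were seen. Ccn2 was read under its older symbol Ctgf.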

Additional observations from a re-analysis of the deposited data

How the results depend on the processing

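No paired analysis was possible because the labels number the aortas through the series and no number is shared between groups. The alternatives were a pseudocount of 0.1, no filter, an FPKM minimum of 0.1, TPM, quantile normalization, the 2 groups alone, no variance trend, voom on the reads and the omission of each library. Under all of them between 3 and 4 members were called in HFD_IO over HFD, 5 to 7 in HFD over CD and 7 to 8 in HFD_IO over CD. Of 17 calls on members, 15 were kept under every alternative; the exceptions were Sox9 in HFD_IO over HFD and Snorc in HFD over CD, with the values given above. With 1 library left out, the genes called in HFD_IO over HFD ranged from 2275 to 4944, beside 3969, with fewer libraries in the fit. The count was 2275 without HFD_3, 2551 without HFD_IO_1, 2511 without HFD_IO_2 and 2900 without HFD_IO_3. Changes that were not called turned sign for Comp in HFD_IO over HFD (-0.10 to 0.99 over the omitted libraries), Comp in HFD over CD (-0.19 under TPM, -0.0898 after quantile normalization), Cytl1 in HFD_IO over HFD (0.0156 after quantile normalization) and Cytl1 in HFD over CD (-0.25 to 0.0251 over the omitted libraries). For these the cause was not tested. Depth limits Col2a1 and Col10a1 in CD, which rest on 1 to 9 reads, and Matn3 in all groups.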
